A study of Mus musculus with 18 samples.

Results

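GL261 is a mouse glioma cell line of C57BL/6 origin that is injected into the brain of mice to model glioblastoma. Cultured GL261 cells, the material that is injected, were compared with healthy mouse brain on 2 arrays each, out of 18 arrays in the series. The members of the comparison were taken from the column names of the probe signal table and the matching sample descriptions (Cells 1 and Cells 2, normal 1 and normal 2). The other 14 arrays hold GL261 tumours from WT C57BL/6 and Pfp/Rag2 -/- hosts at day 7, at day 14 and at the symptomatic stage, with RNA of 2 or 3 mice pooled on each array, and are given here as ranges beside the members' values.

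The cultured cells carry no strain or genotype label. Per the growth protocol they were kept in DMEM medium with glucose, pyruvate and glutamine, fetal bovine serum, HEPES buffer and the antibiotics penicillin and streptomycin. The brain samples are labelled C57BL/6 and WT, with no age, sex or brain region, and their cell line field also reads GL261 although the title gives healthy brain and the source name mouse brain. All 17 neuron, 17 astrocyte and 11 oligodendrocyte markers tested were detected on both brain arrays. None of the sources used here states the number of mice behind a brain array, or whether the 2 culture arrays come from separate cultures. The spread between replicate arrays of the cells or of brain may therefore be technical. The p-values come from a fit to all arrays of the series. They rest mostly on the spread between tumour arrays of the same host and stage. The cells are a single line in serum, and the brain is a tissue of many cell types. In such bulk RNA, fewer cells of a type and less RNA per cell cannot be told apart.

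Gliomas are classed by the glial and progenitor genes they keep. Oligodendrocyte progenitors are marked by Sox10, Olig1, Pdgfra and Cspg4, neural stem cells by Sox2 and Nes, and mature astrocytes by Aqp4, Gfap and glutamate transporters. Type I interferon, the cytokine of antiviral defence, acts through a complex with Stat2 and Irf9 that binds a short promoter element and switches on antiviral genes and, with interferon gamma, genes of MHC class I presentation.

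Values are normalized log2 probe signals, so a difference of 1 is a doubling. A gene was called when limma's Benjamini-Hochberg adjusted p was under 0.05, and a gene not detected on either array of a group (detection p of 0.01 or more) is described as at background there. For such a gene the change is given as a least fold, computed from the brighter group's mean and, on each dimmer array, the lowest detected signal or the gene's own where that was higher. Levels at background have no order, and levels of different genes are not compared, because probes differ in brightness.

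Across the 14364 genes tested, 10949 were called (76.2%), 6066 higher (42.2%) and 4883 lower (34%) in the cultured cells. With a 4-fold change required as well, 3648 genes remained (25.4%), 1508 higher (10.5%) and 2140 lower (14.9%). The counts of every gene list below are to be read against these shares. A member at background in brain was kept through culture or tumour arrays alone and could hardly be called lower. A member at background in the cells was kept through brain or tumour arrays alone and could hardly be called higher. The arrays of the 2 groups did not overlap for 90.6% of genes. The median difference over all genes was 0.19 and moved to -0.10 with cyclic loess scaling and to 0.42 with 75th percentile scaling, and the share of called genes that were higher moved from 55.4% to 43.8% and 62.1%. Replicate arrays correlated at r = 0.994 across genes in cells and 0.996 in brain, against 0.593 between the group means, and these correlations across genes carry no test. Probes were detected at 32.3% and 32.6% on the culture arrays and at 37.5% and 35.7% on the brain arrays.

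The 15 largest falls, all at background in the cells, were Cplx1, Ttr, Snurf, Atp1b1, Thy1, Rasgrp1, Prkcb, Rgs4, LOC381283, Scn4b, Caln1, Sh3gl2, Eef1a2, Dnajc6 and Gpr158. Cplx1, which encodes complexin of the synaptic release machinery, stood at 14.89 and 14.90 in brain and was at least 389-fold lower in the cells (adjusted p = 1.12e-07). Ttr, the choroid plexus carrier of thyroid hormone, stood at 14.82 and 14.81 in brain and was at least 366-fold lower (adjusted p = 0.000503). Its standard error was 2.06 in the fit shared with the tumour arrays, which spread from 6.86 to 14.62.

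The 15 largest rises were 1300013J15RIK, Col2a1, Epb41l4b, Gm773, Cdk1, Dppa4, Gpnmb, Espn, Timp1, Tfap2a, Moxd1, Tex19.1, Isg15, Emp3 and 1 entry that the gene table lists only by a number. Gpnmb, a transmembrane glycoprotein of pigment cells and macrophages, stood at 13.96 and 14.19 in the cells and 7.03 and 7.28 in brain (log2 difference 6.92, SE 0.15, adjusted p = 4.26e-12). Dppa4, a chromatin-binding gene of pluripotent cells, stood at 11.71 and 11.68 in the cells, at least 58.2-fold above brain. Tex19.1, a germ cell gene, stood at 11.20 and 11.27, at least 42.4-fold above brain. Dppa4 and Tex19.1 were at background on both brain arrays and detected on all 14 tumour arrays, at 10.04 to 11.28 and 9.47 to 10.90. Moxd1, a monooxygenase-like gene of neural crest derivatives, stood at 14.52 and 14.66 against 7.98 and 7.89 in brain, and the culture lay within the tumour range of 14.23 to 14.84.

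**Figure D1:**
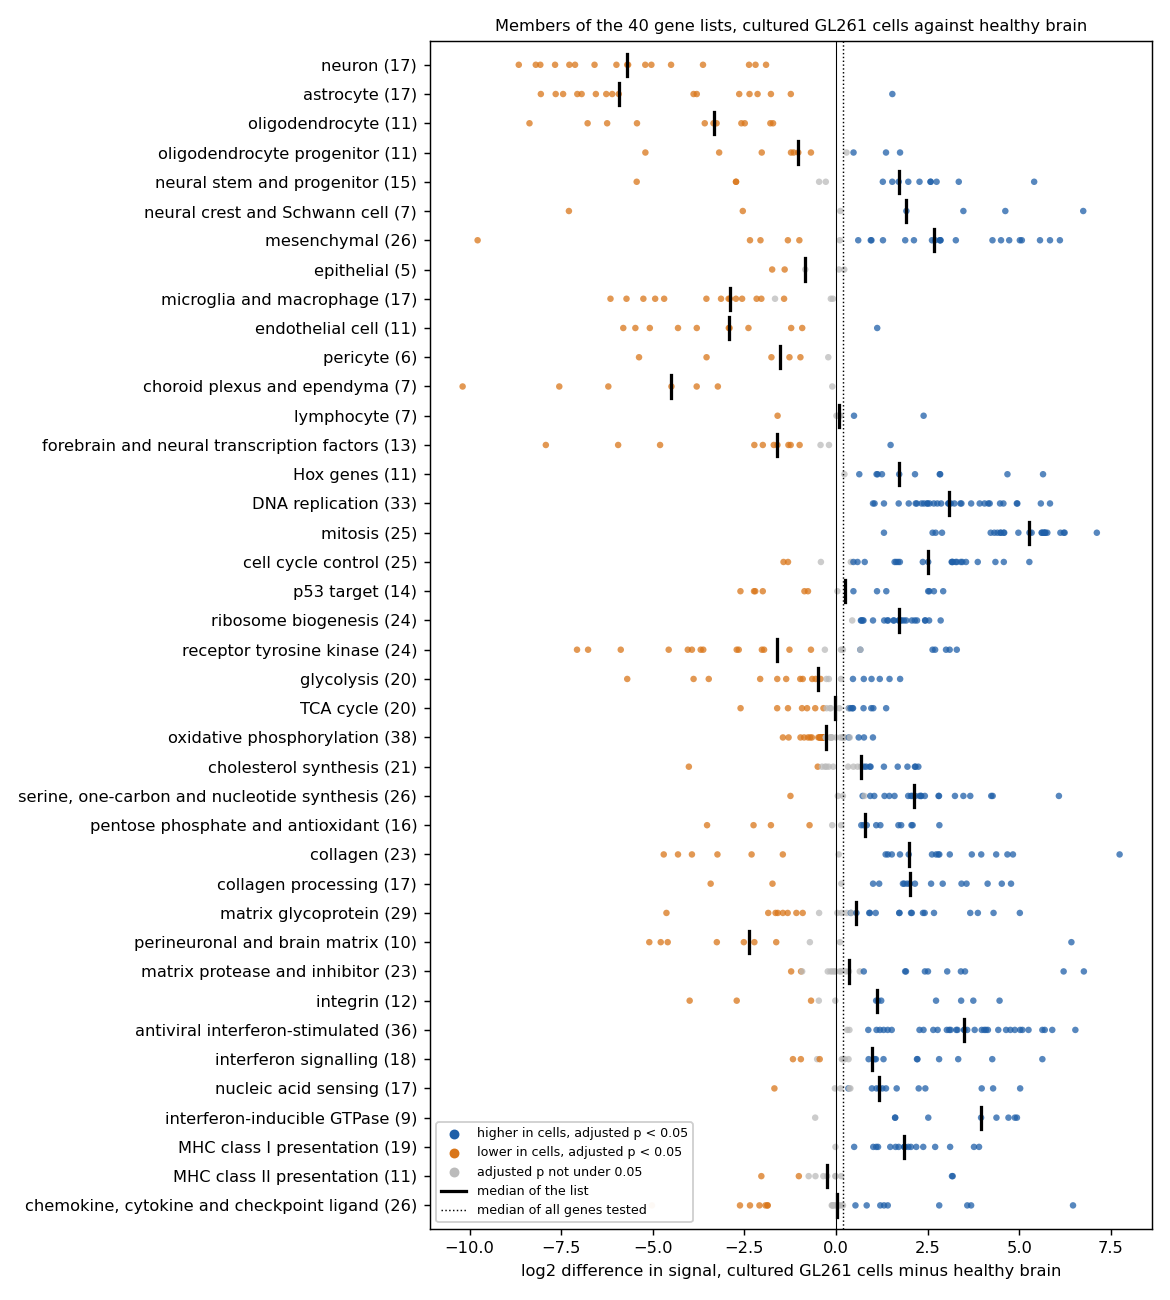
Each point is 1 gene of the list named on the left (number tested in brackets), placed at its log2 difference between cultured GL261 cells and healthy brain, with black bars for list medians and a dotted line for the median of all genes tested (0.19). Neuron and astrocyte members lie to the left (medians -5.70 and -5.93), mitosis and antiviral members to the right (5.28 and 3.50), and the medians of glycolysis, the TCA cycle and oxidative phosphorylation lie near 0 (-0.49, -0.03 and -0.28) with members on both sides.

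Markers of the mature cells of brain fell. Of 24 neuron genes listed 17 were tested, and all 17 fell, 16 of them by 4-fold or more (median -5.70), against 34% and 14.9% of all genes. In the cells 11 of the 17, among them Slc32a1, Gad1, Stmn2 and Nrgn, were at background. Gad1, which makes the transmitter GABA, stood at 4.67 and 4.48 in the cells and 12.55 and 12.73 in brain, at least 81.5-fold lower (adjusted p = 1.34e-06). Syt1, the calcium sensor of synaptic vesicles, stood at 5.95 and 6.44 against 14.38 and 14.39 (log2 difference -8.19, SE 0.65, adjusted p = 1.15e-07). Uchl1, a neuronal deubiquitinase, stayed well detected at 9.27 and 9.15 against 11.48 and 11.34 (-2.20). The summed signal of the tested neuron genes was 1719 and 1701 on the culture arrays and 104408 and 103121 on the brain arrays.

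Of 19 astrocyte genes 17 were tested, 16 fell and 1 rose (median -5.93), and 13 were at background in the cells. Sox9, a transcription factor of astrocytes and neural stem cells, stood at 4.70 and 4.63 in the cells and 12.10 and 12.13 in brain, at least 56.6-fold lower (adjusted p = 1.92e-07). Aqp4, the water channel of astrocyte endfeet, was at least 19-fold lower, and Gfap, the astrocyte filament, at least 10.8-fold lower at 6.03 and 5.81 against 9.77 and 9.68. All 14 tumour arrays lay above both culture arrays for Sox9 (9.02 to 12.82), Aqp4 (7.71 to 12.07) and Gfap (8.92 to 12.90). Acsl6, a fatty acid CoA ligase, and Ntsr2, a neurotensin receptor, had the largest fitted falls of the list, at least 73- and 64.6-fold. Slc1a3, the glutamate transporter of radial glia and astrocytes, stood at 12.16 and 12.23 against 14.35 and 14.32 (-2.14, adjusted p = 3.83e-06). Gja1, the gap junction protein connexin 43, stood at 12.38 and 12.26 against 13.52 and 13.59 (-1.23, adjusted p = 0.000198). S100b, a calcium-binding protein of glia and Schwann cells, was the member that rose, from 6.52 and 6.35 to 8.03 and 7.92 (1.54, SE 0.39, adjusted p = 0.00254), with no overlap of the groups and tumours at 5.13 to 6.88.

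All 11 oligodendrocyte genes tested, of 16 listed, fell, 9 by 4-fold or more (median -3.34). Mag, Mog, Opalin and Aspa, genes of myelinating cells, were among those at background in the cells. Mag, an adhesion protein of the innermost myelin layer, stood at 13.32 and 13.28 in brain and was at least 128-fold lower (adjusted p = 6.66e-09). Cldn11, the tight junction protein of myelin, stood at 13.23 and 13.25 in the cells and 15.06 and 15.01 in brain (-1.79, adjusted p = 7.72e-05). It differed between the groups without overlap and was detected on both culture arrays. In the authors' deposited table the mean signal of Mbp, myelin basic protein, was 1439.3 in the cells and 5113.3 in brain and that of Mobp 59.9 and 4135.4, with background included.

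Oligodendrocyte progenitor genes were detected on both culture arrays in 7 of 11 tested. Of the 11, 3 rose and 7 fell, 3 of the falls by 4-fold or more (median -1.03). Sox10, the transcription factor that specifies oligodendrocytes and neural crest glia, stood at 13.72 and 13.73 in the cells and 11.961 and 12.003 in brain. Both culture arrays were above both brain arrays and within the tumours' range of 13.14 to 14.01 (log2 difference 1.75, SE 0.13, adjusted p = 8.09e-08). Cspg4, the NG2 proteoglycan, stood at 7.76 and 7.91 against 6.54 and 6.41 (1.36, adjusted p = 9.52e-06). Nkx2-2, a transcription factor of the same lineage, stood at 8.86 and 8.94 against 8.47 and 8.38 (0.48, adjusted p = 0.0407), a call lost with cyclic loess scaling (0.07, adjusted p = 0.724) and without any 1 of the 4 arrays (adjusted p from 0.0814 to 0.146). The other probe of Nkx2-2 stood at 1.216 (adjusted p = 0.0018). Olig1, a lineage transcription factor, stood at 12.46 and 12.34 against 13.49 and 13.62 (-1.16), and Pdgfra, the receptor for the progenitor mitogen PDGF, at 9.52 and 9.68 against 10.31 and 10.26 (-0.69). The call of Pdgfra was lost with 75th percentile scaling (-0.37, adjusted p = 0.0727) and with the mean of its probes (-0.25, adjusted p = 0.114), the other probe standing at 0.18. Ptprz1, a receptor phosphatase, stood at 7.17 and 7.51 against 9.41 and 9.34 (-2.03), and every tumour array was above both groups, at 9.77 to 10.85. Sox8, a relative of Sox10, was at least 6.24-fold lower. Gpr17, a receptor of progenitors about to differentiate, was at background in the cells, at least 22.1-fold below brain, and at 10.06 to 12.36 in the tumours. Olig2 was at background in both groups on its 1 tested probe.

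Of 15 neural stem and progenitor genes tested, 10 rose, against 42.2% of all genes, and 3 fell (median 1.71). Nes, the intermediate filament nestin, stood at 10.62 and 10.81 in the cells and 5.11 and 5.51 in brain, at least 29.5-fold higher (adjusted p = 4.63e-10). Sox2, a stem cell transcription factor, stood at 8.82 and 8.76 against 6.37 and 6.65 (2.28, SE 0.26, adjusted p = 2.89e-06). Id1 and Id3, inhibitors of differentiation induced by BMP signals, rose by 3.35 and 2.74. Id1 stood at 11.96 and 11.78 in culture and 8.47 to 9.77 in the tumours, so no tumour array reached the culture arrays. Sox11 and Dcx, genes of immature neurons, and Hes5, a Notch target, were at background in the cells and at least 15.7-, 2.44- and 2.96-fold lower. Fabp7, Msi1 and Prom1 were not tested because their probes were detected on fewer than 2 of the 18 arrays.

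Of 15 neural crest and Schwann cell genes 7 were tested, 4 rose and 2 fell (median 1.92). Among all genes 42.2% were higher and 34% lower, so with 7 tested these counts do not set the list apart. Tfap2a, a transcription factor of the neural crest, stood at 11.47 and 11.52 in the cells and 4.61 and 4.89 in brain, at least 50.7-fold higher (adjusted p = 7.56e-11). Ngfr, the low-affinity neurotrophin receptor of crest cells and Schwann cells, stood at 12.33 and 12.36 against 7.80 and 7.66 (4.62, SE 0.36, adjusted p = 9.52e-08). Cdh19, a cadherin of Schwann cell precursors, stood at 10.53 and 10.53 against 6.95 and 7.16 (3.47, adjusted p = 6.69e-07). For Tfap2a, Ngfr and Cdh19 every culture array was above every brain and tumour array, the tumours lying at 9.07 to 10.55, 7.87 to 9.83 and 7.73 to 8.98. Pmp2, a myelin protein of peripheral nerve, rose at least 1.76-fold. Pmp22 was not called on 1 probe (0.12) and rose on the other (2.29, adjusted p = 1.99e-06). Ncam1 fell by 2.54, with its other probes at -0.331 (adjusted p = 0.21) and -0.664 (adjusted p = 0.00241). Ednrb, the endothelin receptor of crest cells and astrocytes, was at least 51.4-fold lower.

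Hox genes, which pattern the hindbrain, cord and trunk and are silent in forebrain, were represented by 11 tested of 39 listed, the other 28 being detected on fewer than 2 arrays. Of the 11, 10 rose, against 42.2% of all genes, and Hoxd11 was not called. Hoxa2 and Hoxa7 were among the rises, at background in both groups. Of the 11, 9 were at background in brain and were kept through culture or tumour arrays alone. Such members could hardly be called lower, so the count of rises is no support for a trait of the list. Hoxd8 stood at 10.15 and 10.19 in the cells and 4.64 and 4.41 in brain, at least 20.3-fold higher (adjusted p = 5.6e-10), and Hoxa5 at 9.22 and 9.12 against 4.58 and 4.41, at least 10.1-fold higher, with Hoxa4 at least 5.06-fold higher. The tumours lay at 8.34 to 10.17 and 7.45 to 9.84. Of 13 forebrain and neural transcription factors tested 10 fell and 1 rose (median -1.60). Bcl11b, a factor of deep cortical and striatal neurons, was at least 74.5-fold lower, Zic1 at least 24.1-fold lower and Otx2 at least 8.2-fold lower. Otx1, the member that rose, stood at 9.90 and 10.01 against 8.43 and 8.50 (1.49, adjusted p = 0.000108) and was detected on both culture arrays.

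**Figure D2:**
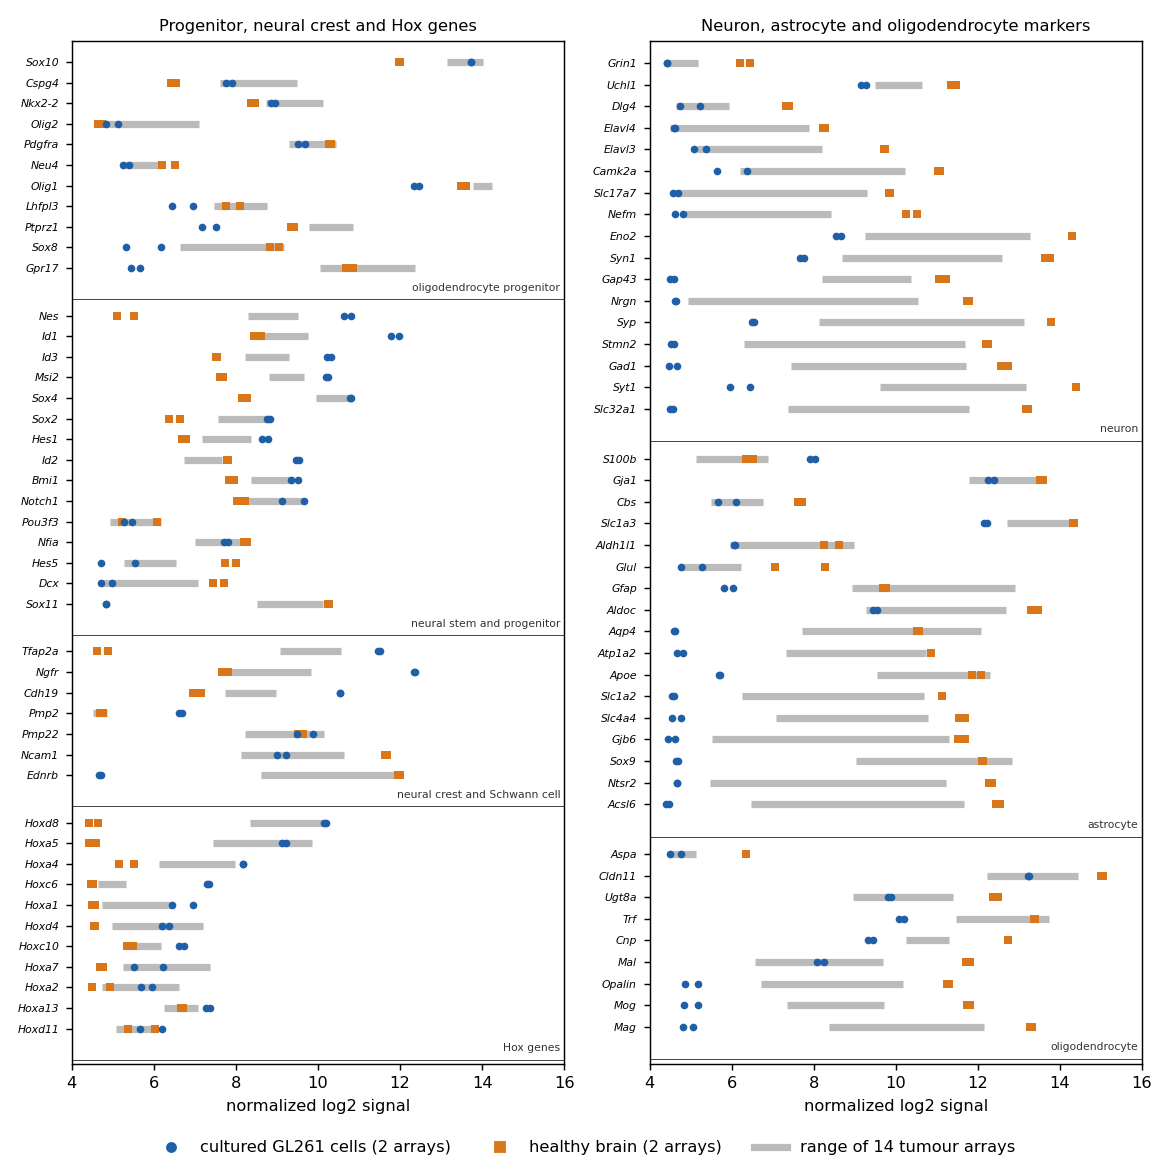
Rows are tested genes of each lineage list, all but 2 oligodendrocyte genes, and the x axis is the normalized log2 signal, with blue points for the 2 culture arrays, orange squares for the 2 brain arrays and a grey bar for the range of 14 tumour arrays. Sox10, Nes, Tfap2a, Ngfr and Hoxd8 sit to the right in the culture, and most neuron and astrocyte markers sit far left of brain in the culture.

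Mesenchymal genes rose in 20 of 26 tested and fell in 5 (median 2.66), with Runx1 and Cald1 among the rises at background in both groups. Vim, the filament vimentin, stood at 13.57 and 13.77 in the cells and 7.45 and 7.68 in brain (6.11, SE 0.16, adjusted p = 1.14e-11). Lgals1 and Lgals3, carbohydrate-binding galectins, rose by 5.84 and 5.56, and Anxa2, a membrane-binding annexin, by 4.50. Ccn1 and Ccn2, matricellular targets of the YAP pathway, stood at 9.76 and 9.57 (at least 14.3-fold higher) and 10.60 and 10.68 (1.28). Twist1, a factor of mesenchymal transition, rose at least 4.4-fold, Snai1 at least 1.33-fold, Zeb2 was not called (0.10) and Zeb1 fell by 1.31. Thy1, a surface protein of both neurons and fibroblasts, was at background in the cells at 4.58 and 4.46 against 14.30 and 14.30, at least 257-fold lower. Nt5e, the ectonucleotidase CD73, fell by 2.35 and Eng, endoglin, was at least 1.25-fold lower. In the authors' deposited table Cd44, the hyaluronan receptor, had a mean signal of 502.9 in the cells and 73.6 in brain. Of the other members without a linked probe there, Prrx1 had 325.1 and 77.2. Acta2 went the other way, with 184.1 in the cells and 322.6 in brain. Of 5 epithelial genes tested none rose and 2 fell, Krt18 at 4.57 and 4.53 against 6.08 and 5.82 and Ocln at 4.68 and 4.51 against 6.39 and 6.28, and Krt8, a keratin at background in the cells, was not called. The call of Krt18 was lost with 75th percentile scaling (-0.76, adjusted p = 0.177), cyclic loess scaling (adjusted p = 0.053), an offset of 50 (-0.74, adjusted p = 0.0513) and without culture array 2 (adjusted p = 0.0547). Krt8 was called lower with cyclic loess scaling (adjusted p = 0.0367), array weights (adjusted p = 0.0384) or only the 4 arrays compared (adjusted p = 0.00114).

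Of 17 microglia and macrophage genes tested 14 fell and none rose, and 15, among them Cx3cr1, C1qa, C1qb, Csf1r, Trem2, Aif1 and Tyrobp, were at background in the cells. Their summed signal was 1193 and 1183 in culture and 10476 and 9834 in brain. Laptm5, a lysosomal membrane protein of blood cells, stood at 5.45 and 4.84 in culture and 11.32 and 11.28 in brain, at least 32.1-fold lower, and was higher still in the tumours, at 11.41 to 13.47. Tmem119 was among the members detected on both culture arrays. Of 11 endothelial genes 9, including Cldn5, Pecam1, Cdh5 and Vwf, were at background in the cells, as were all 6 pericyte and all 7 choroid plexus genes tested. Esam and Slco1c1 of endothelium were at least 10.8- and 12.9-fold lower, Vtn and Rgs5 of pericytes at least 12.8- and 3.54-fold, and Clic6 and Kl of choroid plexus at least 61.8- and 22.1-fold. The endothelial sum was 2488 and 2647 against 7131 and 7345, carried in culture by Ly6c1 (10.55 and 10.56) and Flt1 (9.53 and 9.80). Ly6c1, whose family also responds to interferon, rose by 1.12, a call lost without any 1 of the 4 arrays (adjusted p from 0.05 to 0.0648). Among lymphocyte genes Lck, a kinase of T cells, stood at 8.55 and 8.55 against 6.01 and 6.32 (2.39, adjusted p = 3.09e-07), while Cd3d, Cd3e, Cd3g, Cd79b and Nkg7 were at background in both groups.

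All 33 DNA replication genes tested of 35 listed rose, 28 by 4-fold or more (median 3.07), and all 25 mitosis genes tested of 30 rose, 24 by 4-fold or more (median 5.28), against 42.2% of all genes higher and 10.5% by 4-fold. At background in brain were 9 of the 33 replication and 14 of the 25 mitosis genes, kept through culture or tumour arrays alone. Such members could hardly be called lower, so the counts of rises are no test of the lists. The same calls were made with cyclic loess and 75th percentile scaling. Promoters of 3 of these genes are shown because they carry the letters that many mitotic and replication promoters share. They are RefSeq sequences of build GRCm38.p6, from 250 bases before to 50 after the gene start, with capitals for matches to TTTGAA, known as the cell cycle homology region, and to TTTGGCGC, TTTCGCGC or TTCCCGCC, letters bound by E2F factors, all on either strand.
Cdk1 (chr10:69352863-69353162, minus strand): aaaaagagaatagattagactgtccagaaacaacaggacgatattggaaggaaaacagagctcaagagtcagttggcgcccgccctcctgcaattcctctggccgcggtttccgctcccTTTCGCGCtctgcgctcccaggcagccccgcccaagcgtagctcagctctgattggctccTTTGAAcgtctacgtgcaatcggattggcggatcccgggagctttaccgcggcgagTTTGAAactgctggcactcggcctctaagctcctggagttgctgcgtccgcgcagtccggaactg
Top2a (chr11:99024140-99024439, minus strand): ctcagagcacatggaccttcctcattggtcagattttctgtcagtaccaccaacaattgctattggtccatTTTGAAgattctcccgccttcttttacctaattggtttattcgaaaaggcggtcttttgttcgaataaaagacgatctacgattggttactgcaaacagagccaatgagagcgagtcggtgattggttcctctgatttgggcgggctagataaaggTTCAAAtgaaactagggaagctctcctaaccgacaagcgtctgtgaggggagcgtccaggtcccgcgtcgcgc
Mcm5 (chr8:75109259-75109558, plus strand): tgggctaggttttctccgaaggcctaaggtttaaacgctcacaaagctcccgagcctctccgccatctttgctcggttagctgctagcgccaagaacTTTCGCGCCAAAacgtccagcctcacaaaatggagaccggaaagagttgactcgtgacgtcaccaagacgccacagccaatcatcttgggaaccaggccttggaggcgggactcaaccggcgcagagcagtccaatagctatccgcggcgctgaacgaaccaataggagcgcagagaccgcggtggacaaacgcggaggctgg
The 2 E2F matches of Mcm5 overlap. TTTGAA or its reverse complement stood in 16 of 22 mitosis promoters (72.7%), 5 of 26 replication promoters (19.2%) 5 of 7 promoters of interferon-inducible GTPases (71.4%) and 1078 of 9132 promoters of all genes tested (11.8%), so a high share was not limited to mitosis. The E2F letters stood in 1 of 22 mitosis promoters (4.55%), 10 of 26 replication promoters (38.5%), none of the 7 GTPase promoters and 495 of 9132 of all genes tested (5.42%). These shares describe letters and are no evidence of binding.

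Cdk1, the kinase that drives entry into mitosis, stood at 12.24 and 12.18 in the cells and 5.15 and 5.04 in brain. It was at background in brain and at least 83.1-fold higher in culture (adjusted p = 2.27e-11), with all 14 tumour arrays between the groups, at 10.61 to 11.66. Cdc20, the activator of the anaphase-promoting complex, stood at 12.85 and 12.68 against 6.46 and 6.59 (6.24, SE 0.19). Birc5, the survivin subunit of the chromosomal passenger complex, was at least 66.9-fold higher and Mki67, the proliferation antigen Ki-67, stood at 10.96 and 11.22 against 5.77 and 5.86 (5.28). Top2a, which untangles replicated DNA, stood at 11.82 and 11.93 against 5.75 and 6.33 (5.84, adjusted p = 3.51e-10). Mcm5, a subunit of the replicative helicase, stood at 12.50 and 12.54 against 8.30 and 8.42 (4.16, SE 0.19, adjusted p = 1e-09). Mcm10, a replication initiation factor, was at least 34.5-fold higher and Cdt1, which loads the helicase, stood at 10.85 and 10.84 against 5.78 and 6.01 (4.95). The tumour median lay between culture and brain for all 25 mitosis genes and for 32 of 33 replication genes. Summed signal of the tested mitosis genes was 75550 and 76725 in culture and 1678 and 1644 in brain.

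Of 25 regulators of the cycle tested, 21 rose and 2 fell (median 2.51). Ccnd1, the G1 cyclin D1, stood at 13.41 and 13.42 in the cells and 10.17 and 10.13 in brain (3.26, adjusted p = 1.81e-10). It was higher still on every tumour array, at 14.05 to 14.45. Ccnd2, cyclin D2, stood at 12.46 and 12.43 against 10.76 and 10.76 (1.69), with both culture arrays above all tumour arrays at 11.25 to 12.22. Rbl1, the pocket protein p107, was at least 14.1-fold higher, and Cdkn1c, the inhibitor p57, and Mycl fell by 1.43 and 1.31. Cdk2 rose by 4.58 and Cdk4 by 3.19, and Myc, a growth transcription factor, stood at 7.61 and 7.78, at least 3.63-fold above brain. The line also carried signal of cycle brakes. Cdkn2a, the locus of p16 and p19Arf, stood at 10.12 and 9.62 against 4.51 and 4.68, at least 16.4-fold higher (adjusted p = 3.7e-09), and all 3 of its probes were called higher. Cdkn2b, the neighbouring p15 gene, was at least 13.7-fold higher. Trp53, encoding p53, stood at 10.62 and 10.63 against 8.13 and 8.38 (2.37) and its target Cdkn1a at 10.73 and 10.67 against 8.20 and 8.18 (2.51). Array signals do not show whether these genes carry mutations.

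Of 14 p53 target genes tested 7 were higher and 6 lower in the cells (6 and 7 with cyclic loess scaling), with a median of 0.26. Among all genes 42.2% were higher and 34% lower, with a median of 0.19. Gadd45a and Phlda3 rose by 2.92 and 2.67 and Sesn2 at least 4.58-fold, while Zmat3, Plk2 and Sesn1 fell by 2.61, 2.24 and 2.00. Fas, the death receptor, was at background in the cells. Mdm2, the ligase that degrades p53, was higher by 0.47, a call lost with cyclic loess scaling, where the sign turned (-0.01, adjusted p = 0.943). Ribosome biogenesis genes rose in 23 of 24 tested (median 1.72), 7 of them by 4-fold or more. Npm1, nucleophosmin, stood at 14.06 and 14.06 against 12.40 and 12.30 (1.71), and Nop58, a core protein of box C/D particles, at 12.28 and 12.14 against 9.98 and 10.02 (2.21). Ebna1bp2, Ddx21 and Nhp2 rose by 2.85, 2.54 and 2.43. The other probe of Ebna1bp2 stood at -0.038 and was not called (adjusted p = 0.805).

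Of 24 receptor tyrosine kinases tested, 6 rose, with Met at background in both groups, and 14 fell (median -1.62). The call of Met was lost without any 1 of the 4 arrays (adjusted p from 0.0542 to 0.123). Fgfr2, Ntrk2, Ephb1, Epha7, Ret, Ntrk3, Egfr, Alk, Tyro3, Ephb2 and Pdgfrb were at background in the cells, and all 11 fell. Egfr, often amplified in human glioblastoma, stood at 4.57 and 4.50 in the cells and 8.25 and 8.20 in brain, at least 3.81-fold lower (adjusted p = 1.32e-05). Fgfr2 stood at 11.71 and 11.71 in brain and was at least 42.8-fold lower. The receptors that rose by 4-fold or more were Ddr2, Ephb4, Erbb2, Axl and Fgfr3. Erbb2 stood at 8.69 and 8.55 against 5.81 and 5.43 (3.00, adjusted p = 5.33e-09), and Axl, the receptor for Gas6, at 13.27 and 13.48 against 10.71 and 10.63 (2.70) with tumours at 13.06 to 13.88. Fgfr3 stood at 9.78 and 9.76 in culture and 7.23 and 7.04 in brain (2.63), and at 4.74 to 6.42 in the tumours, below both groups. Kit, the stem cell factor receptor, showed the opposite order, with 8.15 and 8.25 in culture, 10.14 and 10.30 in brain and 10.80 to 12.78 in the tumours.

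Of 20 glycolysis genes tested 6 rose and 11 fell (median -0.49), counts that became 4 and 14 with cyclic loess and 8 and 8 with 75th percentile scaling. The genes with the largest falls were the neuronal enolase Eno2, at 8.54 and 8.66 against 14.29 and 14.30 (-5.70), and the astrocytic aldolase Aldoc, at 9.54 and 9.44 against 13.29 and 13.47 (-3.89). Ldha, which turns pyruvate into lactate, stood at 13.39 and 13.36 against 11.60 and 11.65 (1.75, SE 0.14, adjusted p = 1.06e-07). Pgk1 stood at 12.82 and 12.82 against 11.36 and 11.36 (1.46) and Pdk1, the kinase that restrains pyruvate dehydrogenase, at 8.29 and 8.21 against 6.97 and 7.15 (1.19). The 2 probes of Pkm, pyruvate kinase, were called in opposite directions. Slc2a1, the glucose transporter of the blood-brain barrier, fell by 0.65, a call lost with 75th percentile scaling (-0.26, adjusted p = 0.229), and Slc2a3, that of neurons, fell by 1.60. Hk1, the hexokinase of brain, stood at 6.17 and 6.41 against 7.78 and 7.52 (-1.36, adjusted p = 1.03e-05), and Pfkfb4, a regulator of phosphofructokinase, was at least 4.47-fold lower.

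Counts of mitochondrial genes depended on the scaling. Of 38 oxidative phosphorylation genes tested 4 were higher and 18 lower, none by 4-fold (median -0.28), but 1 and 30 with cyclic loess and 16 and 3 with 75th percentile scaling. Within the list the complex I subunit Ndufv1 and the complex III subunit Uqcrc1 fell by 1.45 and 1.29, while Uqcrb and Cyc1 of complex III rose by 1.01 and 0.76, the call of Cyc1 being lost with cyclic loess scaling (0.25, adjusted p = 0.0912). The 20 TCA cycle genes tested gave 8 higher and 7 lower (3 and 11, and 10 and 4), close to the shares of all genes (42.2% and 34%). Idh3a, a subunit of the NAD-dependent isocitrate dehydrogenase, stood at 9.20 and 9.27 against 11.83 and 11.84 (-2.60). Its other probe stood at 0.342 and was not called (adjusted p = 0.187). The NADP-dependent Idh2 stood at 11.01 and 10.99 against 9.54 and 9.72 (1.37). Suclg2 and Dld rose by 1.02 and 0.96 (Suclg2 on 1 of 3 probes, the others standing at -0.31 and 0.09, its call being lost with the mean of the probes at 0.27), and Ogdh and Mdh1 fell by 1.61 and 1.31. Of 21 genes of cholesterol synthesis and its control 10 rose and 2 fell (median 0.68). The count of rises was close to the share of all genes (42.2% higher, with 34% lower). Lss, lanosterol synthase, rose by 2.15, Sqle, squalene epoxidase, by 0.76, and Mvk, mevalonate kinase, at least 2.35-fold, while Hsd17b7 fell by 0.50. The call of Sqle was lost with cyclic loess scaling (0.25, adjusted p = 0.445) and without any 1 of the 4 arrays (adjusted p from 0.06 to 0.083). That of Hsd17b7 was lost with 75th percentile scaling (-0.13, adjusted p = 0.536) and without culture array 2, brain array 1 or brain array 2 (adjusted p from 0.0685 to 0.116).

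Of 26 serine, one-carbon and nucleotide genes tested 22 rose, 15 by 4-fold or more, and 1 fell (median 2.12), and cyclic loess scaling gave 22 and 1 again. Tk1, the thymidine kinase of S phase, stood at 10.77 and 10.82 in the cells and 4.80 and 4.63 in brain, at least 31.1-fold higher (adjusted p = 8.09e-11). Shmt1 and Shmt2, which take one-carbon units from serine, stood at 10.43 and 10.48 and 10.61 and 10.71 against 6.16 and 6.20 and 6.99 and 7.01 (4.27 and 3.66). Mthfd2, the mitochondrial folate enzyme, rose by 3.47 and Rrm2, of ribonucleotide reductase, at least 11.1-fold. Phgdh, the first enzyme of serine synthesis, stood at 9.25 and 9.12 against 7.23 and 6.99 (2.08). The member lower in the cells, Dut, had 1 probe called in each direction. Among 16 pentose phosphate and antioxidant genes 10 rose and 4 fell (median 0.79), with G6pdx higher by 1.70 and Hmox1 at least 4.41-fold higher. Txnrd1 and Txn1 of the thioredoxin system rose at least 3.3-fold and by 2.06, and the glutathione transferases Gstm1 and Gsta4 and the sulfiredoxin Srxn1 fell by 3.52, 2.25 and 1.78.

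**Figure D3:**
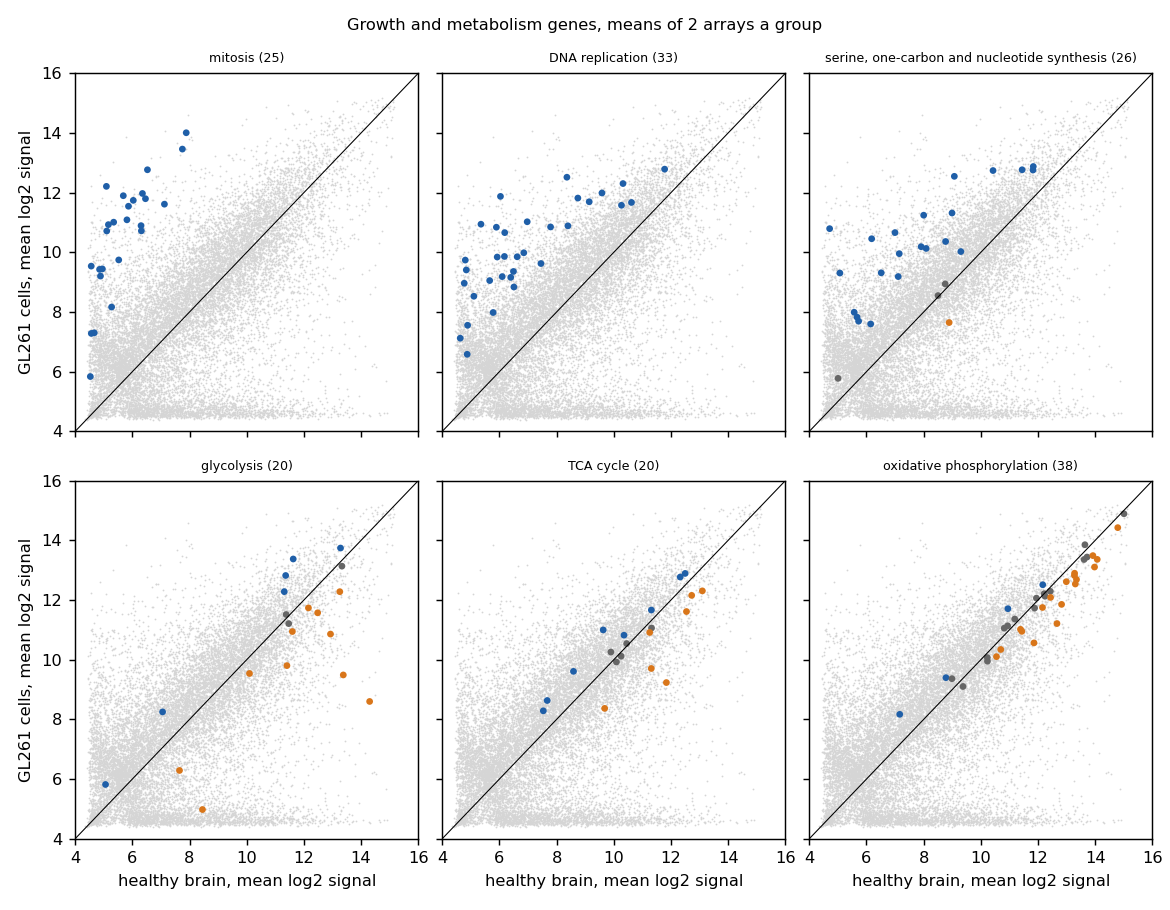
Each panel plots the mean log2 signal in healthy brain (x axis) against that in cultured GL261 cells (y axis), grey for all genes tested and coloured for the list named above it (blue called higher, orange called lower, dark grey not called), with a line of equal signal. All 25 mitosis and all 33 DNA replication genes lie above the line, while the 38 oxidative phosphorylation genes follow it.

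Of 23 collagen genes tested 16 rose, 11 by 4-fold or more, and 6 fell (median 1.98). Col2a1, the fibrillar collagen of cartilage, stood at 12.42 and 12.78 in the cells and 5.04 and 4.69 in brain, at least 109-fold higher (adjusted p = 8.36e-10). Col5a1 stood at 10.50 and 10.61, at least 26.4-fold above brain, and Col15a1 and Col12a1 rose by 4.67 and 4.37. Col6a1, of microfibrils, stood at 11.96 and 12.05 against 9.26 and 9.29 (2.73), above all tumour arrays at 8.79 to 10.41. Col4a1 and Col4a2, the basement membrane collagens of vessels, were at background in the cells and at least 6.7- and 6.22-fold lower, while Col4a5 of the same family rose by 2.82. Col8a2 was at background in the cells and at least 9.7-fold lower. Col3a1, called higher, was at background in both groups, and the 2 probes of Col1a1 disagreed, with the brighter at 7.38 and 7.39 against 6.01 and 6.06 and the other called lower.

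Of 17 collagen-processing genes tested 14 rose and 2 fell (median 2.02). Serpinh1, the collagen chaperone HSP47, stood at 13.48 and 13.47 against 9.90 and 9.94 (3.56, SE 0.17, adjusted p = 1.43e-09). Fkbp10, a prolyl isomerase of collagen folding, rose by 4.52, P3h1 by 4.13, and Plod2, a lysyl hydroxylase, stood at 9.80 and 9.72, at least 15.2-fold above brain. Loxl1, a crosslinking oxidase, was at background in the cells. Of 29 matrix glycoproteins 16 rose and 8 fell (median 0.56), and of 12 integrins 7 rose and 3 fell (median 1.12). Among all genes 42.2% were higher and 34% lower. Fn1, fibronectin, stood at 10.05 and 10.56 against 7.59 and 7.68 (2.67), Thbs2 rose by 3.66 and Itga1, a collagen receptor subunit, stood at 9.72 and 9.74, at least 14.9-fold above brain. Hspg2, the basement membrane proteoglycan perlecan, rose by 3.87 and Emilin1 at least 11.3-fold. Dcn, the small proteoglycan decorin, was at background in the cells at 4.57 and 4.77 against 9.26 and 9.34, at least 8.02-fold lower, and its relative Bgn fell by 1.65. Itga6 and Itgb1 were at least 8.28- and 7.72-fold higher, with no tumour array reaching the culture (5.76 to 7.14 and 7.06 to 7.89), and Itga3 was at least 7.08-fold lower.

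In the brain's own matrix 7 of 10 tested genes fell (median -2.37). Cspg5, Hapln1, Hapln2 and Hapln4 were at background in the cells, and Ncan and Bcan, brain lecticans, fell by 3.25 and 2.23. Has2, a hyaluronan synthase, was the exception, at 10.85 and 11.19 against 4.54 and 4.65, at least 36.4-fold higher (adjusted p = 5.95e-10). Of 23 proteases and inhibitors 10 rose and 2 fell (median 0.35). Among all genes 42.2% were higher and 34% lower, so the count of rises does not set the list apart. Mmp2, gelatinase A, stood at 13.14 and 13.22 in the cells and 7.09 and 6.85 in brain (6.21, SE 0.23, adjusted p = 1.71e-10), and its activator Mmp14 at 9.98 and 9.97 against 8.04 and 8.13 (1.89). Timp1, a metalloproteinase inhibitor, stood at 11.74 and 11.56, at least 56.4-fold above brain. Adam12, a membrane metalloproteinase, was at least 6.47-fold higher, and the 2 members that fell were Serpine2, by 0.96, and Mmp24, by 1.22. The other probes of Mmp24 stood at -5.4 (adjusted p = 3.88e-06) and -4.513 (adjusted p = 9.38e-07). The call of Serpine2 was lost with 75th percentile scaling (-0.42, adjusted p = 0.155) and without brain array 2 (adjusted p = 0.0519). Mmp3, Mmp10, Mmp12 and Mmp13 were at background in culture and brain, and Mmp13 reached 5.54 to 12.46 in the tumours.

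**Figure D4:**
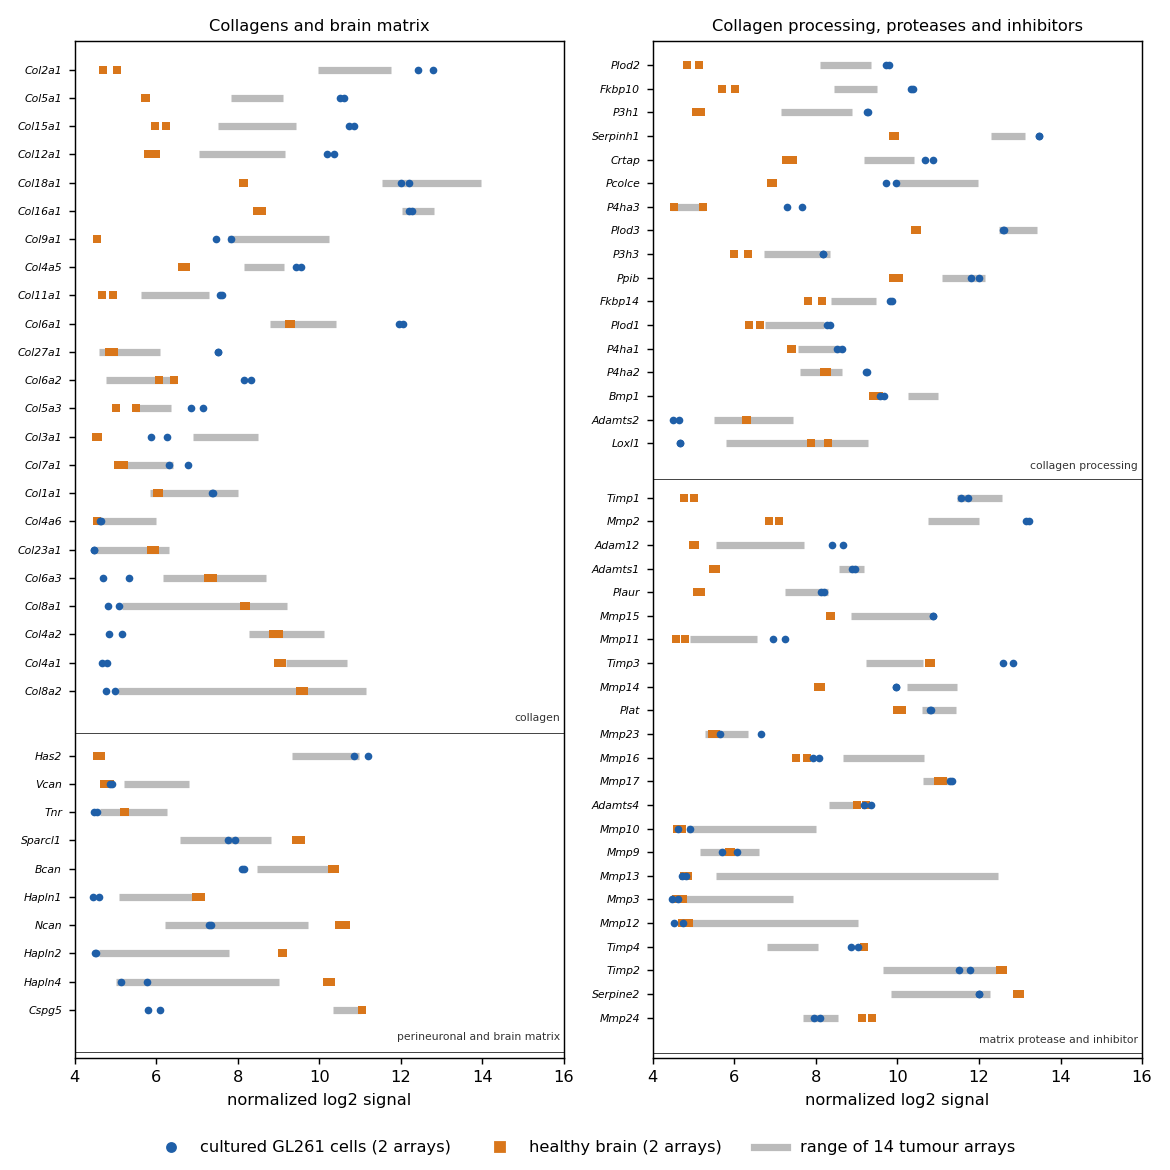
Rows are the tested collagen, brain matrix, collagen processing and protease genes, with blue points for the 2 culture arrays, orange squares for the 2 brain arrays and grey bars for the range of 14 tumour arrays on a normalized log2 axis. Col2a1, Has2, Mmp2 and Timp1 stand far to the right of brain in the culture, and Col4a1 and Cspg5 to the left.

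The labels name no interferon treatment of the cultured cells. Of 48 antiviral interferon-stimulated genes listed 36 were tested, 34 rose and none fell, against 42.2% of all genes higher, and 28 rose by 4-fold or more (median 3.50). Of the 36, 17 were at background in brain and were kept through culture or tumour arrays alone. Such members could hardly be called lower, so the count of rises is no test of the list. The counts of 34 and 0 were the same with cyclic loess and 75th percentile scaling. Of the 34, Ifih1, Isg20, Mx1 and Oas3 were at background in both groups, and Zbp1 and Ifi204 were not called. Among members without a linked probe, Adar was lower, with a deposited mean signal of 236.4 in the cells and 374.5 in brain. Ifitm1, Oas1g and Sp100 were higher in the cells, at 1544.0, 333.6 and 80.1 against 161.0, 66.5 and 62.2. The promoters of Isg15, Rsad2 and Igtp are shown for the element that the interferon-activated complex with Stat2 and Irf9 binds, searched as GAAANNGAAA on both strands and given in capitals in the RefSeq sequences of build GRCm38.p6.
Isg15 (chr4:156200769-156201068, minus strand): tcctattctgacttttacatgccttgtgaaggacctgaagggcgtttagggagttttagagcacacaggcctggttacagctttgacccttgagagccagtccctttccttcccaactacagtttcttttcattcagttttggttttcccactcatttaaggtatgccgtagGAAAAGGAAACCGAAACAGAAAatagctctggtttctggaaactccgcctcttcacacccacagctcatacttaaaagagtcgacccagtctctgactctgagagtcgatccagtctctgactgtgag
Rsad2 (chr12:26456403-26456702, minus strand): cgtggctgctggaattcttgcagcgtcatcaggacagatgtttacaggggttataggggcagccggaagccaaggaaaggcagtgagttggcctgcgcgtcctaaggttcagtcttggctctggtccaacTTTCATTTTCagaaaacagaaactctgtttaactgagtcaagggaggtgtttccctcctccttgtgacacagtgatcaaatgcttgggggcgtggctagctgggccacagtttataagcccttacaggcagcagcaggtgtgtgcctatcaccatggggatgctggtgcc
Igtp (chr11:58199306-58199605, plus strand): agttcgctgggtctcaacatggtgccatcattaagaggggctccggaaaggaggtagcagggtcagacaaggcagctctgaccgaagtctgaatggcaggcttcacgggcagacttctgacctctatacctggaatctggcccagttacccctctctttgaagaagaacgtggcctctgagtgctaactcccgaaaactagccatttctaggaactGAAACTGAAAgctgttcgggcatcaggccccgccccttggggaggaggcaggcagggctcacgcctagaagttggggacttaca
The 3 matches of Isg15 overlap and begin 78, 72 and 66 bases before the gene start, that of Rsad2, on the reverse strand, 120 bases and that of Igtp 34 bases before it. The letters stood in 14 of 25 promoters of tested antiviral genes (56%), 6 of 7 of GTPase genes (85.7%), 4 of 16 of MHC class I genes (25%), 3 of 16 of interferon signalling genes (18.8%) and 296 of 9132 of all genes tested (3.24%). Gbp3 counts in both the antiviral and the GTPase list. Both lists were drawn up as interferon-inducible genes, so a high share there is no result about the cultured cells. These shares describe letters and are no evidence of binding. The windows without a match included those of Oasl2 and Cmpk2.

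Isg15, a ubiquitin-like protein induced by interferon, stood at 12.22 and 12.16 in the cells and 5.63 and 5.70 in brain. It was at background on both brain arrays and at least 82.2-fold higher in culture (adjusted p = 7.05e-12), within the range of the tumours (11.09 to 12.32). Of the 34 antiviral genes called, the tumour median lay above both culture and brain for 25 and between them for 9. Rsad2, the antiviral enzyme viperin, stood at 11.54 and 11.54 against 5.56 and 5.73, at least 52.4-fold higher (adjusted p = 4.08e-11). Usp18, which removes Isg15 and dampens the receptor, stood at 12.56 and 12.52 against 6.62 and 7.20 (5.63, SE 0.20, adjusted p = 1.03e-10). Ifi27 rose by 5.69, Oasl2 by 5.25, Bst2, the virus-tethering protein tetherin, by 5.08, and Ifitm3, a block to virus entry, stood at 14.30 and 14.22 against 9.88 and 9.79 (4.43). Dhx58, the RNA helicase LGP2, stood at 9.87 and 9.82 against 5.79 and 5.96 (3.97). Ifit2 and Cmpk2 moved less, at 8.66 and 8.79 against 7.48 and 7.37 (1.30) and 10.61 and 10.53 against 9.18 and 9.14 (1.41). Summed signal of the tested antiviral genes was 89607 and 88649 in culture and 5501 and 5433 in brain. Members of the Ifit, Oas, Gbp and H2 families share sequence, so that a probe may also read a relative.

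Of 18 interferon signalling genes tested 10 rose and 3 fell (median 0.97), against 42.2% higher and 34% lower among all genes. Stat2 stood at 8.44 and 8.69 against 6.28 and 6.40 (2.22, adjusted p = 1.23e-07) and Irf9 rose by 2.81. Irf7, the factor that amplifies type I interferon, stood at 9.13 and 9.19, at least 10-fold above brain (adjusted p = 3.18e-10). The receptor chain Ifngr1 rose by 0.89, and Ifnar2 and Ifngr2 were not called (0.34 and -0.52). Socs3, a feedback inhibitor, rose by 3.33. Jak2, a receptor-associated kinase, and the myeloid factors Irf8 and Irf5 fell, Jak2 by 0.96 and Irf8 and Irf5 at background in the cells. The call of Irf8 was lost with 75th percentile scaling (-0.57, adjusted p = 0.0652). That of Irf5 (-0.45) was lost with that scaling (-0.32), without background correction (-0.21), with an offset of 50 (-0.30), without the filter on dim probes, and without culture array 2 or brain array 2 (-0.31 in both cases). In the authors' deposited table Irf1 had a mean signal of 526.9 in the cells and 112.6 in brain. Among 17 sensors and adaptors 12 rose, Tlr3 and Ifih1 at background in both groups, and 1 fell (median 1.18). Cgas, the DNA sensor, stood at 10.70 and 10.73 against 6.46 and 6.40 (4.29, adjusted p = 1.21e-09), Ddx58, the RNA sensor RIG-I, at 10.35 and 10.47, at least 23.8-fold above brain, and Tbk1 was not called (-0.03).

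The interferon-inducible GTPases, which defend vacuoles against parasites and bacteria, rose in 8 of 9 tested and none fell (median 3.96), although cyclic loess scaling called 1 member lower. Igtp stood at 12.41 and 12.34 in the cells and 7.27 and 7.60 in brain (4.93, SE 0.16, adjusted p = 6.06e-11). Irgm2, Gbp2 and Gbp3 rose by 4.70, 3.96 and 4.88. The rise of Gbp2 was that of its brightest probe, and its other probes stood at 0.036 and 0.145 (adjusted p = 0.919 and 0.636). The tumour median lay above culture and brain for all 8. Of 19 MHC class I genes tested 18 rose, 7 of them by 4-fold or more, and none fell (median 1.86). Tap1, the peptide transporter, stood at 8.57 and 8.55, at least 6.63-fold above brain (adjusted p = 1.22e-09), Psmb9 and Psmb8 of the immunoproteasome rose by 3.11 and 2.70 and Nlrc5, the class I transactivator, at least 5.35-fold. H2-K1 stood at 8.48 and 8.47 against 6.50 and 6.69 (1.88) and H2-D1 at 10.94 and 10.79 against 9.04 and 8.96 (1.86). B2m, the light chain of every class I molecule, stood at 13.89 and 13.79 against 11.44 and 11.48 (2.38, adjusted p = 9.08e-10). All tumour arrays were above both groups for the 3 genes, at 9.86 to 12.19 for H2-K1, 12.16 to 13.39 for H2-D1 and 14.10 to 14.63 for B2m.

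Of 11 MHC class II genes tested, 2 rose and 2 fell (median -0.24), and Cd74, H2-Aa, H2-Ab1, H2-Eb1, H2-Oa, H2-Ob and their transactivator Ciita were at background in both groups. H2-Ab1 reached 9.64 to 14.37 in the tumours. H2-DMb1 and H2-DMb2 are near-identical chains of the peptide-loading protein that a probe may not separate. H2-DMb1 stood at 9.42 and 9.18 against 6.05 and 6.19 (3.18), and H2-DMb2 at 9.21 and 8.96 against 6.04 and 5.81 (3.16). The other probe of H2-DMb2 stood at 0.091 (adjusted p = 0.851). The partner H2-DMa fell by 1.01.

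Of 26 chemokines, cytokines and checkpoint ligands tested 9 rose and 8 fell (median 0.03), close to the shares of all genes (42.2% and 34%). Cxcl10, a T cell attractant induced by interferon, stood at 11.05 and 10.96 in the cells and 4.53 and 4.55 in brain, at least 36-fold higher (adjusted p = 1.52e-10), and Ccl5 at 8.41 and 8.24, at least 5.64-fold higher. Cxcl9, a ligand of the same receptor as Cxcl10, and Ccl2 and Ccl7 were at background in both groups. Il11, a cytokine of the IL-6 family, stood at 8.84 and 8.61, at least 7.43-fold above brain, and Csf1, the macrophage growth factor, at 7.30 and 7.50 against 5.88 and 6.09 (1.41). Cd274, the checkpoint ligand PD-L1, stood at 7.40 and 7.62 against 6.43 and 6.18 (1.21, adjusted p = 8.55e-06). The call was not made on the series matrix values (0.32, adjusted p = 0.133). Those values were not scaled between arrays, and the median difference over all genes was -0.6 there. Cd276 stood at 10.74 and 10.76 against 7.91 and 7.96 (2.81). Cd47, the signal against engulfment, fell by 1.93, and Cx3cl1, a neuronal chemokine, was at least 80.4-fold lower. Cxcl14 and Il34, a second ligand of the macrophage receptor Csf1r, were at background in the cells and at least 11.2- and 2.04-fold lower. Tgfb2, an immunosuppressive growth factor first purified from glioblastoma, stood at 8.001 and 8.126 against 6.81 and 6.70 (1.31, adjusted p = 0.00112), a call also missing on the series matrix values (0.51, adjusted p = 0.0663), and Tgfb1 was at background in both groups and not called. In the authors' deposited table Cxcl12 had a mean signal of 61.1 in the cells and 414.9 in brain.

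**Figure D5:**
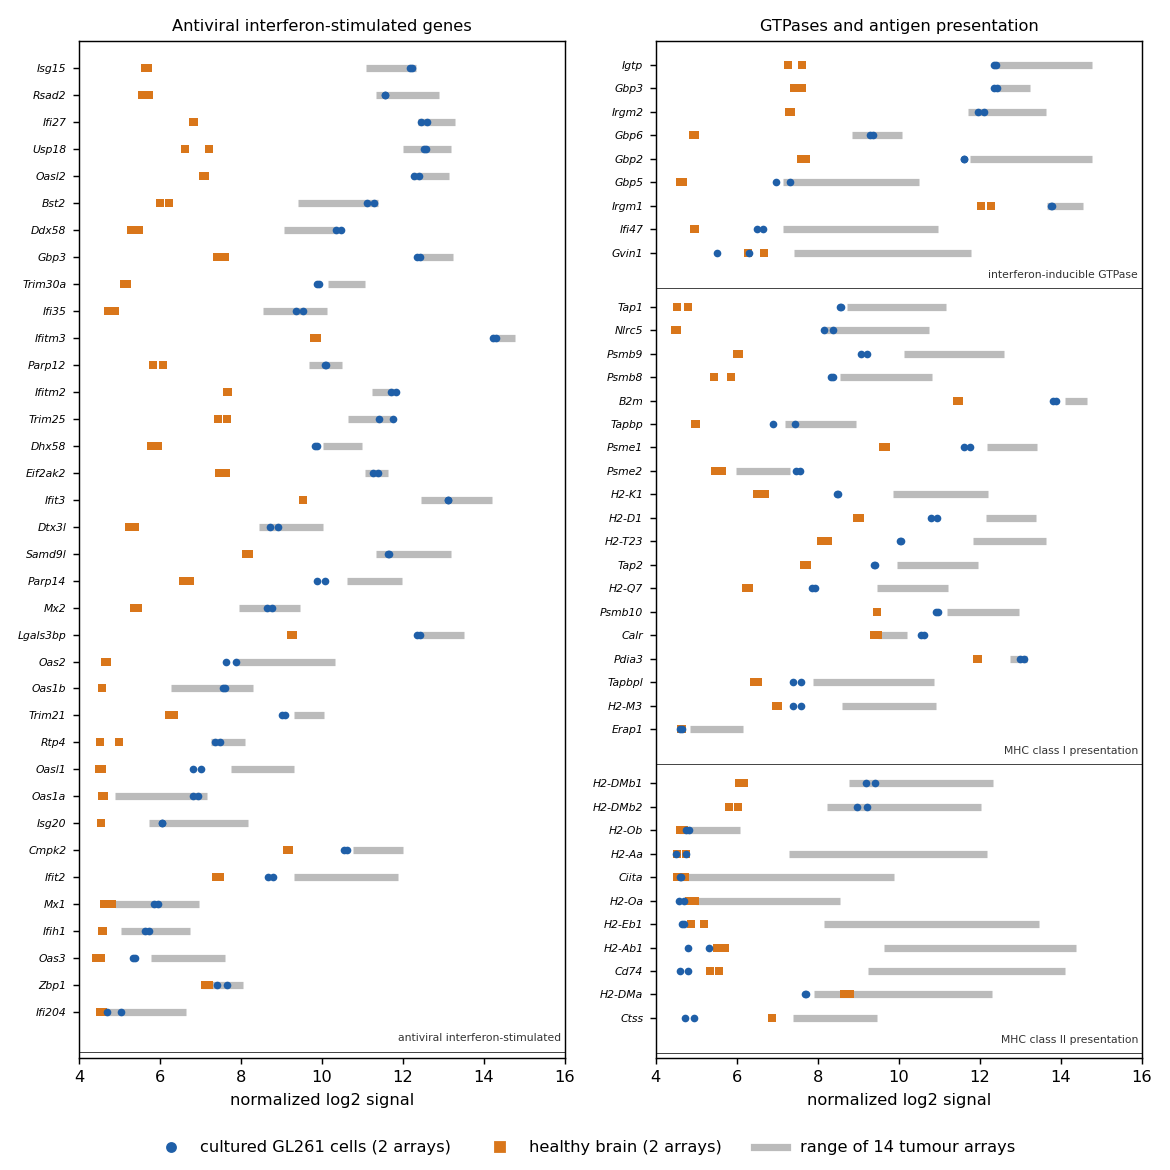
Rows are the tested antiviral, GTPase and antigen presentation genes on a normalized log2 axis, with blue points for the 2 culture arrays, orange squares for the 2 brain arrays and grey bars for the range of 14 tumour arrays. Most antiviral genes of the culture lie within or beside the tumour range and well right of brain, while Cd74, H2-Aa and H2-Ab1 lie with brain at the left edge.

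Igf2, an imprinted growth factor gene, stood at 10.86 and 10.80 in the cells and 12.45 and 12.54 in brain (-1.67, adjusted p = 0.000262). Its imprinted neighbour H19, a noncoding RNA, was at background in both groups, at 5.61 and 5.76 against 5.05 and 4.86, so its levels have no order. Its call was lost without any 1 of the 4 arrays and on the series matrix values (0.07), and its sign turned with cyclic loess scaling (-0.28). Xist, the RNA of the inactive X chromosome, was at background in the cells at 4.60 and 4.92 and stood at 10.97 and 10.78 in brain, at least 24-fold lower (adjusted p = 2.7e-09), with all 4 of its probes called lower and tumours at 7.93 to 10.68. Prf1, the gene knocked out as Pfp in the other hosts, was not called between the cells and WT brain (0.50, adjusted p = 0.0946), and Rag2 was detected on fewer than 2 arrays. Prf1 was called higher in the cells with 75th percentile scaling (0.71, adjusted p = 0.0212), array weights (adjusted p = 0.0134), only the 4 arrays compared (adjusted p = 0.0433) and without culture array 1 (0.73, adjusted p = 0.0484).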

How the data were processed

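RNA was labelled as biotinylated cRNA and hybridised to Illumina MouseWG-6 v2.0 arrays, per the labels' protocols. The authors deposited 1 intensity per probe and array with background left in and no scaling between arrays, as the values show, beside a detection p-value. A second deposited table of lowest, mean and highest signal per gene and group, with detection scores from 0 to 1, was exported from GenomeStudio 1.9.0 without normalization, per the file headers. The probe table holds no gene names. Each of 30854 genes of the mean table was therefore linked to the probe, or the mean of 2 to 4 probes, that gave its lowest, mean and highest signal in each of the 8 groups. This linked 30469 genes (98.8%) to 43110 probes with differences up to 0.0557 signal units. None of 30854 decoy genes was linked to a single probe, and links to several probes had no decoy test. Names were updated from RefSeq for 16223 genes by symbol, 4024 by synonym and 742 by gene number, and 9865 were left as deposited.

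The last 974 rows of the probe table were taken as a control block. After repeated identifiers were removed, the 946 with a mean signal under 3 times the block median served as negative controls. They were chosen by position and signal, not by a label. Signals were background-corrected on these 946 probes, quantile normalized and put on the log2 scale with neqc (offset 16) in limma 3.58.1 under R 4.3.3. Detection p-values were computed anew from the same 946 probes. Probes with such a p-value under 0.01 on at least 2 of 18 arrays were kept, and the brightest probe stood for a gene. One limma fit with 8 group means (residual df 10, prior df 2.99) gave moderated tests, adjusted by the Benjamini-Hochberg method over 14364 genes. Called means an adjusted p under 0.05, and the 4-fold rule adds a log2 change of at least 2. Tables, links, promoters and plots were made with Python 3.11.15, NumPy 2.4.6, pandas 2.3.3, SciPy 1.17.1, numba 0.67.0 and matplotlib 3.10.9. In simulated arrays of 14364 genes, 200 genes were changed, 40 at each size. The fit called 2.5%, 60% and 92.5% of genes raised by 0.5, 1 and 2. It called 52.5% and 87.5% of genes lowered by 1 and 2, and 5 unchanged genes. In the data 76.2% of genes were called, which makes the Benjamini-Hochberg threshold looser than in the simulation. The simulated rates therefore do not carry over to this comparison.

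The members, lists and tests were chosen with earlier results of these data known. Named genes are the 15 largest rises and falls without overlap, the 3 largest rises and falls of each list, and a fixed set of glioma, lineage, growth, matrix and immune genes. The 40 lists hold 915 genes. Of these 701 were tested, 155 were not detected on 2 arrays and 59 had no linked probe, 31 of which have a row in the mean table. Among the fixed genes Cd44, Map2, Mbp, Hk2, Ldhb, Hmgcs1, Tnc and Cxcl12 had no linked probe, and Fabp7, Msi1, Prom1, Erbb3, Snai2, Snap25, Cdk6, Mycn, Ifit1 and Rag2 were not detected on 2 arrays. Of 3915 genes with several kept probes, 185 had probes called in both directions.

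RefSeq promoters of build GRCm38.p6 were matched by symbol for 9132 of the genes tested. The deposited series matrix holds 10466 of the probes. Its column medians run from 172 to 576 and 99.6% to 100% of its values lay within 1% of the probe signal, so it was taken as linear, uncentred intensity. Median signal per array ran from 67.2 to 134. The number of arrays, 2 against 2, limits precision. Replicate numbers of the titles did not pair the cell and brain arrays: the replicate differences correlated at 0.002. No array batch is given in the sources used here. Results for some genes are not reported here.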

Additional observations from a re-analysis of the deposited data

How the results depend on the processing

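The count of 10949 called genes was 9870 to 12447 under 10 of the alternatives and the left-out arrays (9870 to 10127 without 1 array), 6982 of 7913 genes on the series matrix values, which cover fewer genes, and 5252 when the change was tested against 1 on the log2 scale. The count of 3648 genes with a 4-fold change was 3617 to 3672 without 1 array, 2655 with an offset of 50, 2254 without background correction and 2326 on the series matrix values. With the replicate number as a block, 11009 genes were called, 3647 with a 4-fold change, and of the named genes the block moved Cd74 alone across the threshold. The share of called genes that were higher was 55.4%, against 43.8% with cyclic loess scaling, 62.1% with 75th percentile scaling and 40.5% on the series matrix values. The series matrix values were used without background correction or scaling between arrays, and the median difference over all genes was -0.6 on them. The sign turned for Col1a1 (-0.29), Dut (0.20) and Pkm (0.96) with the mean of the probes, for Pkm (1.89) on the series matrix values, and for H19 (-0.28) and Mdm2 (-0.01) with cyclic loess scaling. The probes of Col1a1, Dut and Pkm disagree with each other, and for the others the cause was not tested. Of 248 named genes 6 to 9 lost the call without 1 array, 7 with cyclic loess (H19 and Mdm2 included), 8 with 75th percentile scaling and 44 when tested against a change of 1. Signals at background, 2676 genes in the cells alone, 1312 in brain alone and 1012 in both, give only a bound, and folds near background depend on the offset.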

Other observations

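The 14 tumour arrays allow a description of genes that neither the cultured cells nor healthy brain carried at the tumour level. These genes were chosen after their values were seen, by a gap of at least 1 on the log2 scale, and carry no test. All 14 tumour arrays were above both culture and both brain arrays for 93 of 14364 genes. H19 had the widest gap, 7.14, with 5.61 and 5.76 in the cells, 5.05 and 4.86 in brain and 12.91 to 15.11 in the tumours. The next 2 by gap were H2-Ab1 and Cd74 of MHC class II, at 3.93 and 3.67, followed by LOC641240, C4a, Cytl1, the Fc receptor Fcgr4, the lysozyme gene Lyz2, the lectin Clec7a and CSNK, at 3.47 to 3.00. The cytokine-like gene Cytl1 lay at 8.20 to 9.74 in the tumours, against 4.50 and 4.69 in the cells and 4.74 and 4.77 in brain. C4a and C4b, and the lysozyme genes, are near-identical pairs that probes may not separate.

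Both culture arrays were above both brain and all 14 tumour arrays, again by at least 1, for 169 genes. Tnnc1, a troponin of slow muscle and heart, had the widest gap, 3.41, with 10.04 and 9.92 in the cells, 6.46 and 6.51 in brain and 5.03 to 6.15 in the tumours. Crabp2, a retinoic acid carrier, stood at 9.49 and 9.46 in the cells and 4.92 to 6.29 in the tumours. Papln stood at 9.62 and 9.66 against 6.02 to 6.73. Of the 10949 genes called between culture and brain, the tumour median lay between both groups for 8426, above both for 1324 and below both for 1199.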
